A study of Mus musculus with 2 samples.

Results

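The long non-coding RNA (lncRNA) genes expressed in the mouse erythroid progenitor line G1E were 112 of 5656 annotated lncRNA genes. They were chosen by level: a gene had to be of GENCODE M21 type lincRNA, antisense, processed_transcript, sense_intronic or bidirectional_promoter_lncRNA and reach a TPM (transcript abundance per length, scaled to a fixed library total) of 2 in both libraries. Gm42418, Gm26917, Gas5 and the Snhg genes were left out. By these values 1.98% of the lncRNA genes entered, against 7242 of 21461 nuclear protein-coding genes (33.7%) at the same level. The levels of the 112 genes are therefore a description without a test.

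The cells are an immortalised line labelled as Gata1- erythroid progenitors, of strain C57BL/6J, male, postnatal, with an age of 0 day. There is 1 group of 2 libraries, numbered as biological replicates 2 and 1, each with its own biosample record and both from the same donor. Each library came from 1 ng of total RNA, of molecules over 200 nucleotides, with ERCC spike-in transcripts added. No treatment and no cells with Gata1 are among these samples, so the libraries are compared only with each other, and p-values measure the difference between those libraries, not a condition.

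Long non-coding RNAs are transcribed and processed much like messenger RNAs but are not known to be translated into a protein. Some build nuclear bodies, some silence neighbouring imprinted genes as they are transcribed, and others are mainly the carriers of microRNAs or small nucleolar RNAs that are cut out of them. In erythroid cells a few have been tied to survival and to the cell cycle. Many start beside a protein-coding gene on the opposite strand.

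The replicate 2 library held 40597614 estimated counts and the replicate 1 library 31649878. Nuclear protein-coding genes took 18.9% of them in replicate 2 and 26.9% in replicate 1, and the 112 lncRNA genes 0.229% and 0.259%. The pair Gm42418 and Gm26917, known to overlap ribosomal RNA sequence, took 41.0% and 53.5%. A floor of 3 counts was worth 0.0739 CPM in replicate 2 and 0.0948 CPM in replicate 1, and floors and intervals cover counting error only. TPM is scaled over all of this RNA, and the median gene at 2 TPM in both libraries had a TPM ratio of 0.645 for replicate 2 over replicate 1. The median lncRNA gene had 0.660, and 106 of the 112 had the higher TPM in replicate 1. In bulk RNA, fewer cells that make a transcript and less of it per cell cannot be told apart. Ratios between the libraries below are therefore of counts scaled by the trimmed mean of M-values (TMM). Gata1 itself had 12.51 TPM (649 counts) in replicate 2 and 21.96 TPM (798 counts) in replicate 1. Counts over a whole gene do not show whether a deleted part is missing. Kit, a receptor of early progenitors, had 114.55 and 175.0 TPM, and Gata2 29.51 and 52.8 TPM, and Gfi1b, Tal1, Klf1 and Epor were all detected.

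The level fell steeply from a few lncRNA genes to the rest. The mean TPM of 54 genes lay between 2 and 5, of 33 between 5 and 10, of 19 between 10 and 50, and of 6 at 50 or more. The median was 4.19 TPM in replicate 2 and 6.06 TPM in replicate 1, against 7.37 and 11.1 TPM for protein-coding genes that passed the same minimum. Summed over the lncRNA genes, the level was 1.55 per 100 TPM of nuclear protein-coding genes in replicate 2 and 1.34 in replicate 1 (1.44 ± 0.146, SD, n = 2). The 6 genes at 50 or more include Gm42743, Cct6a and Gm10076, whose lncRNA label is in question, as given below. Malat1 alone made up 44.5% and 33.5% of the summed TPM of the expressed lncRNA genes, and Malat1 with Gm42743 58.7% and 53.1%. Without Malat1 the sum was 0.858 and 0.892 per 100 TPM (0.875 ± 0.0238).

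**Figure D1:**
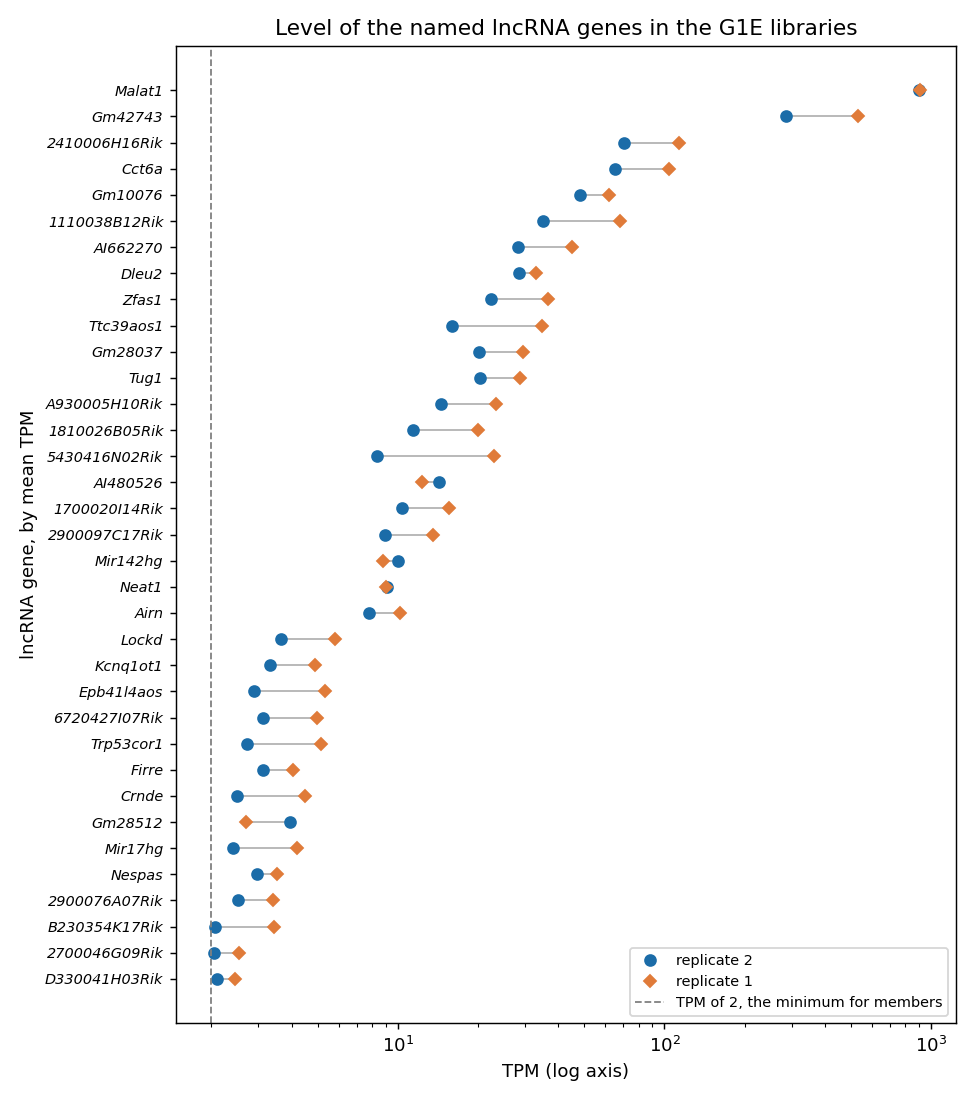
TPM of the 35 named lncRNA genes on a log axis, with replicate 2 as circles and replicate 1 as diamonds, ordered by mean TPM, and a dashed line at the minimum of 2 TPM. Malat1 lies at 897.72 and 909.16 TPM, and most other genes have the replicate 2 circle to the left of the replicate 1 diamond.

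By gene type, 42 of 2771 lincRNA genes, 24 of 2060 antisense genes, 34 of 589 processed transcripts, 5 of 146 sense intronic genes and 7 of 90 bidirectional promoter genes were among the 112. The shares were 1.52%, 1.17%, 5.77%, 3.42% and 7.78%. Of the 5656 lncRNA genes 1119 had any count. The values just inside the minimum belonged to 2700046G09Rik (2.04 TPM in replicate 2 and 2.53 in replicate 1), B230354K17Rik (2.07 and 3.43) and D330041H03Rik (2.09 and 2.45). Just outside lay C130036L24Rik (1.97 and 3.7 TPM), Rab26os (1.97 and 2.04 TPM) and AV099323 (1.96 and 3.45 TPM).

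Among RNAs of nuclear bodies, Malat1, which collects in nuclear speckles, was the most abundant lncRNA. It had 897.72 TPM (45771 counts) in replicate 2 and 909.16 TPM (31490 counts) in replicate 1. The TPM values were nearly equal, and the TMM ratio was 1.63 (95% interval 1.61 to 1.66), under the 2-fold limit used for a call. Its full-length transcript of 6983 bases held 79.2% and 77.7% of its counts, but only 20.01% and 18.47% of its TPM, because 4 short transcripts shared the rest. Neat1 is the scaffold of paraspeckles, and only its long isoform builds them. Neat1 had 9.1 TPM (3100 counts) in replicate 2 and 9.06 TPM (1791.07 counts) in replicate 1, a TMM ratio of 1.94 (1.83 to 2.06), also under 2-fold. Its 20771-base isoform had 4.54 and 3.28 TPM and the 3004-base isoform 3.81 and 5.78 TPM, so the long form was the higher one in replicate 2 and the short form in replicate 1. The short form lies within the long one, and reads in the shared part are divided by estimate. Firre, an X-linked RNA of nuclear organisation, had 3.13 and 4.03 TPM. Meg3, the fourth gene of this list, was at 0 counts in both libraries. Thus 3 of 4 listed genes were expressed, against 1.98% of all lncRNA genes.

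**Figure D2:**
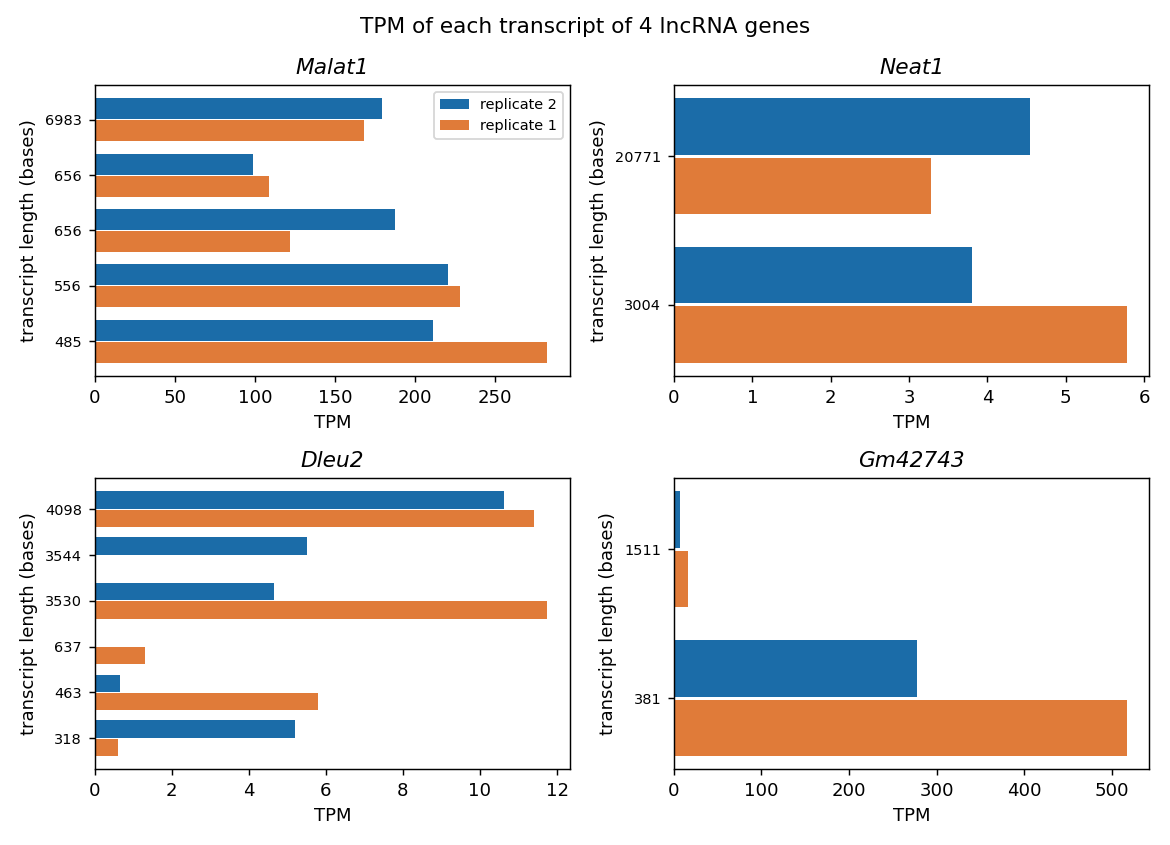
TPM (horizontal axes from 0, differing between panels) of the transcripts of Malat1, Neat1, Dleu2 and Gm42743 that reach 1 TPM in either library, by transcript length in bases, with replicate 2 above replicate 1. Neat1's 20771-base form is above its 3004-base form in replicate 2 (4.54 and 3.81 TPM) and below it in replicate 1 (3.28 and 5.78 TPM), and nearly all of Gm42743 is its 381-base transcript.

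The second highest gene, Gm42743, had 285.0 TPM (2401 counts) in replicate 2 and 534.01 TPM (3428 counts) in replicate 1. Of this level 97.2% ± 0.382 (SD, n = 2) was on a single 381-base transcript, which M21 assigns to the histone gene Hist2h2bb at chr3:96269752-96270132 on the plus strand (GRCm38). The first 90 bases of that transcript are shown from the GENCODE M21 sequence because they decide how the entry is read, with the start codon in capitals.
Gm42743 main transcript: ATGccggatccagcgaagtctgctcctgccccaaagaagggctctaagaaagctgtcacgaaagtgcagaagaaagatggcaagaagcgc
The frame opened by this ATG ran through 127 codons to a stop at the last one. The transcript of type lincRNA in Gm42743 had 7.34 and 16.62 TPM. The values of this entry thus lie mostly on a protein-coding sequence, against its lncRNA label. The neighbouring histone gene Hist2h3b had 338.8 and 528.87 TPM. RefSeq matched 80 of the 112 genes by symbol and listed 70 as lncRNA and 6 as protein-coding: Cct6a, 1810058I24Rik, Ptpmt1, Gm6712, Tmem134 and Ifi30. Cct6a, which encodes a chaperonin subunit, had 64.97 and 103.99 TPM. Main transcripts were also compared with those of other genes: 9 shared at least 30% of their bases in exact stretches of 50 or more, and 71 shared none. In Gm28037, with 20.22 and 29.41 TPM, the whole main transcript was shared, with the ribosomal protein gene Rpl24 (66.54 and 85.41 TPM) overlapping it on the same strand. Gm11632 and Gm23925 were also shared in full, and Gm23925 had only 2.01 and 1.88 counts. Gm10076, which RefSeq lists as a pseudogene, had 48.08 and 62.04 TPM with 30.7% shared. The levels of these genes are uncertain, since the counting could split reads between copies. With all of these genes left out, 97 remained.

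Carriers of small nucleolar RNAs, which guide modification of ribosomal RNA from introns of their hosts, stood both among the highest and lower down. Within 8 lncRNA genes lay 16 annotated small nucleolar RNA genes on the same strand, and 4 of these hosts were among the 10 highest, 1 of them Cct6a, which RefSeq lists as protein-coding. 2410006H16Rik, which holds Snord49b, Snord49a and Snord65, had 70.46 TPM (701 counts) in replicate 2 and 113.11 TPM (836 counts) in replicate 1. 1110038B12Rik, with Snord52, had 35.11 and 68.1 TPM (TMM ratio 0.791, 0.705 to 0.886). Zfas1, with Snord12, had 22.37 TPM (478.29 counts) and 36.45 TPM (546.0 counts), a ratio of 0.983 (0.868 to 1.11). Epb41l4aos, a host with 1 such gene, was near the minimum at 2.89 and 5.32 TPM. By mean TPM, the hosts 1810032O08Rik, AA465934, Epb41l4aos and Gm29170 ranked 47, 62, 70 and 97. The Snhg genes and Gas5, the classical members of this class, are outside the 112 by the rule.

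Within 5 lncRNA genes lay 13 annotated microRNA genes on the same strand. MicroRNAs repress messenger RNAs that pair with their seed, bases 2 to 8, and microRNAs with the same seed are read as a family. The mature microRNAs were not measured, because only RNA longer than 200 nucleotides was sequenced, so the values are of the host transcripts. The sequences show which families the expressed hosts carry and are given from RefSeq (GRCm38.p6) with the seed in capitals. Dleu2, on chromosome 14, holds Mir15a and Mir16-1, which have a seed in common.
mmu-miR-15a-5p: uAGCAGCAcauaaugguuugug
mmu-miR-16-5p: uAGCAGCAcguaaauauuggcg
6720427I07Rik, on chromosome 13, holds 3 let-7 genes with a common seed.
mmu-let-7d-5p: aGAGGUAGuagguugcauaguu
mmu-let-7f-5p: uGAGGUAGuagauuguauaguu
mmu-let-7a-5p: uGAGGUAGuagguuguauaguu
Mir17hg, on chromosome 14, holds the Mir17, Mir18, Mir19a, Mir20a, Mir19b-1 and Mir92-1 genes, with 1 seed common to miR-17 and miR-20a and another to miR-19a and miR-19b.
mmu-miR-17-5p: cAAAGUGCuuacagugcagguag
mmu-miR-20a-5p: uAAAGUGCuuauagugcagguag
mmu-miR-18a-5p: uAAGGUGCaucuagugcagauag
mmu-miR-19a-3p: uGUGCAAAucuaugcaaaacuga
mmu-miR-19b-3p: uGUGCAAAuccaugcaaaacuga
mmu-miR-92a-3p: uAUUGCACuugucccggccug
Mir142hg, on chromosome 11, and 2900076A07Rik, on chromosome 7, hold 1 gene each, Mir142 and Mir1839.
mmu-miR-142a-5p: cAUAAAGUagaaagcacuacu
mmu-miR-142a-3p: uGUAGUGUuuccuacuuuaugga
mmu-miR-1839-5p: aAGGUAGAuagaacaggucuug

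Dleu2, a gene of the region lost in human chronic lymphocytic leukaemia, was the highest of the microRNA hosts, with 28.53 TPM (2361 counts) in replicate 2 and 33.05 TPM (1925 counts) in replicate 1. Its TMM ratio was 1.38 (1.30 to 1.46). None of its 15 transcripts held a whole hairpin in an exon, so the hairpins are intronic or cut by a transcript end in this annotation. A 4098-base unspliced transcript was the most abundant on average, with 10.63 and 11.41 TPM, and the division over the others differed widely between the libraries. The 3530-base transcript had 4.66 TPM in replicate 2 and 11.75 TPM in replicate 1, and the nearly identical 3544-base one 5.52 and 0.01 TPM. Mir142hg, the host of a microRNA abundant in blood cells, had 10.01 TPM from 43 counts and 8.78 TPM from 29 counts. Its ratio was 1.67 (1.02 to 2.77), with an adjusted p of 0.0894 (exact binomial test), above the 0.05 threshold. Mir17hg, the host of a cluster that promotes growth, had 2.41 TPM (242 counts) and 4.19 TPM (304 counts), a ratio of 0.894 (0.752 to 1.06). All 6 of its hairpins lie in an exon of its single transcript. 6720427I07Rik had 3.11 and 4.96 TPM. Its counted transcript of 2300 bases differs in length from the M21 model, so the place of its hairpins in the counted exons was not read. 2900076A07Rik had 2.51 and 3.41 TPM. On the longer list of microRNA and small RNA hosts, 4 of 14 matched genes were expressed and 8 had 0 counts in both libraries. Over all lncRNA genes 1.98% were expressed and 80.2% had 0 counts in both. Mir22hg, with 0.79 and 2.52 TPM, passed the minimum only in replicate 1.

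Imprinted antisense RNAs came next by role. Kcnq1ot1 silences the genes around Kcnq1 on the paternal chromosome. It had 3.32 TPM in replicate 2 and 4.91 TPM in replicate 1, but 8240 and 8782 counts, since its counted transcript is 84395 bases long. This was 8.85% and 10.7% of the summed counts of the expressed lncRNA genes. Kcnq1 was at 0 TPM in both libraries. Airn, which silences Igf2r, had 7.8 and 10.2 TPM, and Igf2r 9.96 and 14.59 TPM. Nespas, antisense at the Gnas locus, had 2.96 and 3.53 TPM, and Gnas 147.23 and 216.86 TPM. The other 4 matched genes of this list, H19, Meg3, Rian and Mirg, had 0 counts in both libraries. Of the X inactivation centre none of 4 genes was expressed at the minimum. Xist had 0 and 2 counts and Jpx none, Tsix 1.52 and 2.99 TPM, and Ftx 0.75 and 0.38 TPM. Antisense counts depend on whether strand was used in counting, which the sources used here do not state, so reads of Airn and Igf2r, or of Nespas and Gnas, may not be told apart.

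Genes with a role in blood cells and in growth followed. Ttc39aos1, known as lincRNA-EPS, protects mouse erythroid precursors from apoptosis. It had 16.03 TPM (180 counts) in replicate 2 and 34.69 TPM (255 counts) in replicate 1, with a TMM ratio of 0.793 (0.651 to 0.963). The interval is not adjusted for the number of genes, and the adjusted p was 0.0558 (exact binomial test), above the 0.05 threshold. Ttc39a, on the other strand with its start 468 bases away, had 6.73 and 8.12 TPM. Lockd, transcribed downstream of the cell cycle inhibitor gene Cdkn1b with 8691 bases between the starts, had 3.66 TPM (38 counts) and 5.8 TPM (39 counts), and Cdkn1b 11.67 and 16.96 TPM. Trp53cor1, known as lincRNA-p21, is induced by p53 beside Cdkn1a. It had 2.73 TPM (227 counts) and 5.16 TPM (311 counts), and Cdkn1a 30.71 and 44.93 TPM. Both coding neighbours were thus above their lncRNA in each library. Of the blood cell list 5 of 8 matched genes were expressed, and Gm14005 (Morrbid), Hotairm1 and Mirt2 had 0 counts. Of the list for growth, p53 and genome stability 6 of 8 matched genes were expressed. Dleu2, Lockd and Mir17hg are on both of these lists, so these counts are not separate. Over all lncRNA genes 1.98% were expressed. Tug1, known from retina and germ cells, had 20.35 and 28.74 TPM, and 2900097C17Rik (Norad), which binds Pumilio proteins, 8.98 and 13.6 TPM. The main transcript counted for 2900097C17Rik had 1149 bases, against 4915 in M21, and that for Lockd 441, against 5662. Their levels may thus not cover the M21 genes in full. Lncpint had 0 counts, and Pvt1 had 0.92 and 2.45 TPM.

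Of the conserved, broadly expressed lncRNAs 5 of 7 matched genes were among the 112, against 1.98% of all lncRNA genes. 1700020I14Rik (Oip5os1, known as Cyrano), which triggers decay of a microRNA, had 10.38 TPM (2245 counts) in replicate 2 and 15.55 TPM (2699 counts) in replicate 1. Crnde had 2.49 and 4.48 TPM from 34 and 55 counts. Of 20 matched genes listed as lncRNA markers of neural, cardiac, Hox-patterned or stem cells (M21 types 1 of them, Tunar, as protein-coding), none reached the minimum and 16 had 0 counts in both libraries. Over all 5656 lncRNA genes 80.2% had 0 counts in both. The other 4 were Lncenc1 (1 and 12 counts), Hotair (0 and 6), Dlx1as (1 and 0) and Fendrr (1 and 0). The list is a selection: it holds Platr3 and Platr10, both at 0 counts, but not Platr4 of the same name series. Platr4 was among the 112, with 2.48 TPM (63 counts) in replicate 2 and 3.67 TPM (68 counts) in replicate 1.

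The remaining named genes among the 15 highest have no role that is given here. AI662270 had 28.3 and 44.94 TPM with 34.4% of its main transcript shared with another gene. A930005H10Rik had 14.46 and 23.42 TPM, 1810026B05Rik 11.42 and 19.9 TPM, and 5430416N02Rik 8.32 and 22.93 TPM. All 4 were lower in TPM in replicate 2, as was the median gene.

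The place of each lncRNA beside a protein-coding partner was read from M21, among coding genes that also had an entry in these libraries. The partner was a head-to-head gene, failing that an overlapping gene, and failing that the gene with the nearest start. Head-to-head pairs, on opposite strands with starts within 1000 bases, numbered 37, with 44 intergenic genes, 21 antisense overlaps and 10 overlaps on the same strand. Gm42743 is counted as intergenic beside Hist2h3b, although M21 places Hist2h2bb within it on the same strand. The median distance between starts in the head-to-head pairs was 147 bases, from 2 bases for 8430429K09Rik and Rnf185 to 897 bases for 0610038B21Rik and Arhgap10. Their coding partners reached 2 TPM in both libraries in 33 of 37 pairs. This held for 8 of 10 same-strand overlaps, 18 of 44 intergenic and 11 of 21 antisense overlapping genes. The median partner level was 5.76 TPM in the head-to-head pairs and 20.1 TPM in the same-strand overlaps. The lncRNA was above its partner in both libraries in 14 of the 37 pairs. Zfas1 was one of these, with Znfx1 at 2.88 TPM in replicate 2 and 2.01 TPM in replicate 1, and Tug1 another, with Morc2a at 2.32 and 6.17 TPM. Gt(ROSA)26Sor, the locus widely used for transgenes, was below its partner, with 7.13 and 12.41 TPM against 32.94 and 53.83 TPM for Setd5 at 32 bases. Levels were set against those of the coding partner as log2(mean TPM + 1). Over all 112 genes, which are not replicates, Pearson's r was 0.06, and it was -0.2 over the head-to-head pairs. These values come from the same libraries, and without a stated strand setting reads near a shared start could fall on either gene. Rnf185, Arhgap10, Gt(ROSA)26Sor and Setd5 are named as extremes or as a known locus, after their values were seen.

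**Figure D3:**
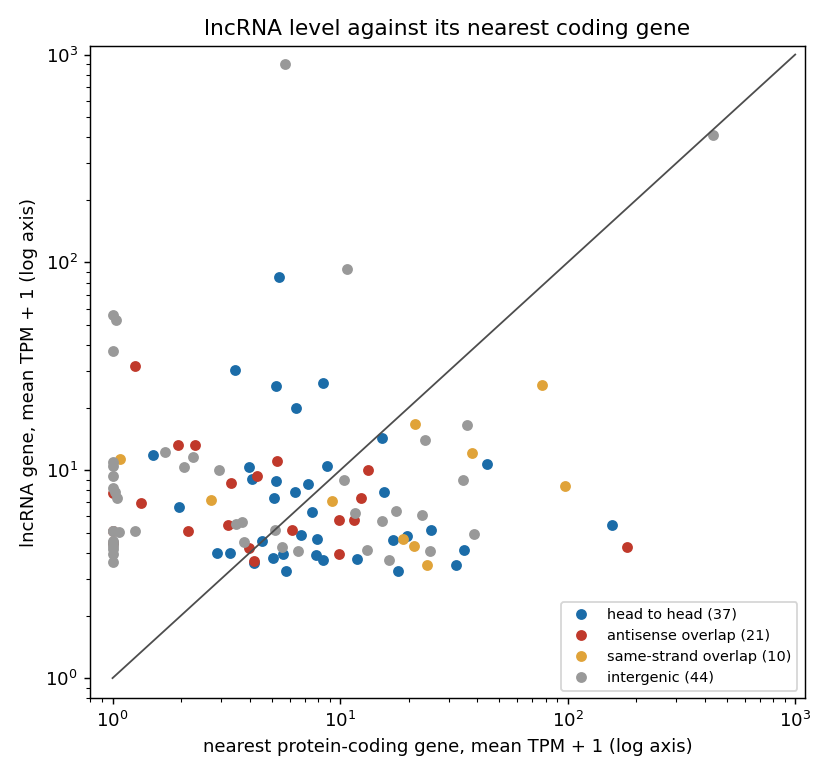
Mean TPM + 1 of each of the 112 lncRNA genes (vertical, log axis) against that of its protein-coding partner (horizontal, log axis), coloured by position, with a line of equality. The partner is labelled as the nearest gene on the axis, but head-to-head and overlapping genes were taken first. Many intergenic genes stand at the left edge beside a coding gene at or near 0 TPM, and head-to-head genes lie on both sides of the line.

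The smaller annotation classes are given next. The 5 sense intronic genes were Gm28941, Gm17491, Gm37062, Gm28512 and Gm29170. Gm28941, inside the mitochondrial fission gene Mff, had 6.05 TPM (159 counts) in replicate 2 and 8.72 TPM (167 counts) in replicate 1, with Mff at 76.96 and 114.86 TPM. Gm17491, inside the phosphate transporter gene Slc20a2, had 4.53 and 7.84 TPM and was above its host, which had 1.07 and 2.37 TPM. Gm37062, inside the translesion polymerase gene Rev1, had 3.24 and 4.09 TPM, with Rev1 at 13.55 and 22.26 TPM. Gm29170 had 2.64 and 3.34 TPM. It was paired head to head with Trove2, on the opposite strand with 574 bases between starts, at 1.32 and 2.41 TPM. Trove2 is thus not its host, and no same-strand host was read for it. Unspliced reads of a host gene could be counted on such a gene in total RNA, and their part in these levels was not tested.

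The 7 bidirectional promoter genes lay between 2.04 and 13.76 TPM. 4632427E13Rik, beside the small GTPase gene Rab30 with 135 bases between starts, was the highest with 7.99 TPM (937 counts) in replicate 2 and 13.76 TPM (995 counts) in replicate 1, while Rab30 had 0.45 and 0.55 TPM. Cep83os had 3.1 and 4.71 TPM, with the centrosome gene Cep83 at 4.4 and 7.12 TPM. 9330151L19Rik had 3.26 and 5.1 TPM, with the dynein assembly gene Dnaaf2 at 3.64 and 6.71 TPM. 2810013P06Rik had 2.43 and 4.78 TPM beside Ankrd11 at 13.58 and 18.72 TPM, and 1700097N02Rik had 2.55 and 3.87 TPM beside Dnah8 at 2.47 and 3.47 TPM. B230354K17Rik was below Cdc5l (9.22 and 12.49 TPM) and 2700046G09Rik below Sgms1 (12.41 and 21.67 TPM). In this class 4632427E13Rik and 1700097N02Rik were thus above their coding partner in both libraries, and the other 5 were below it. For 1700097N02Rik, with 54 and 60 counts, the margin was small. The deposited credibility intervals of its TPM, 1.87 to 3.20 and 2.88 to 4.77, held the values of Dnah8, which it overlaps on the opposite strand. Of its main transcript 21.3% was shared with Glo1.

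On the X chromosome lay 4 of the 112 genes. Besides Firre these were C430049B03Rik (6.2 TPM in replicate 2 and 9.77 TPM in replicate 1), 5530601H04Rik (4.28 and 10.82 TPM) and 2810403D21Rik (3.35 and 4.01 TPM). 5530601H04Rik had a TMM ratio of 0.690 (0.571 to 0.832), while Pbdc1, head to head with it at 147 bases, had 0.830.

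The promoters of 61 of the 112 genes were in the RefSeq set, as 250 bases before to 50 after the start. The ratio of observed to expected CpG had a median of 0.717 in them, against 0.320 in 2110 other lncRNA promoters and 0.818 in 5833 promoters of protein-coding genes at 2 TPM in both libraries. A ratio of at least 0.6, usual for CpG islands, was found in 65.6% of the promoters of expressed lncRNA genes, 25.7% of those of other lncRNA genes and 82.6% of the coding ones. By position it was found in 21 of 26 head-to-head promoters, 12 of 21 intergenic and 6 of 13 antisense ones. Genes of the 112 that RefSeq lists as protein-coding were not removed before these counts. Zfas1 and Ttc39aos1, both in head-to-head pairs, are shown as a CpG-rich and a CpG-poor case, with each CpG in capitals. The Zfas1 promoter is at chr2:167062684-167062983 on the plus strand (RefSeq, GRCm38.p6) and holds 47 CpG, with a ratio of 0.946. That of Ttc39aos1 is at chr4:109406208-109406507 on the minus strand, with the RefSeq start 102 bases from the M21 start, and holds 3 CpG, with a ratio of 0.135.
Zfas1 promoter: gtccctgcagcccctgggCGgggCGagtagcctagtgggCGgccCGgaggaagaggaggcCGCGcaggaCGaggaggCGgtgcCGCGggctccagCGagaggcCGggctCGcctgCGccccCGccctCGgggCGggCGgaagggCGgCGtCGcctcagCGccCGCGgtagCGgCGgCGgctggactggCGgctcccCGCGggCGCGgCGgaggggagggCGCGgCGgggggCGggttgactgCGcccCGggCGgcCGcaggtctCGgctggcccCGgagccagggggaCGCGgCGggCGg
Ttc39aos1 promoter: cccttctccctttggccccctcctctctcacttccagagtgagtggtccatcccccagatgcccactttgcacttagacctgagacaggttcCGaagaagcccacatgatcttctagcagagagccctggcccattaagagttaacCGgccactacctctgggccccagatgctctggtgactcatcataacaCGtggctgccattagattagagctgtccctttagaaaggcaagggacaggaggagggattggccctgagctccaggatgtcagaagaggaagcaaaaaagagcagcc
The GATA factor motif, searched as AGATAA and its reverse complement TTATCT, was in 2 of the 61 promoters (3.28%, Gm10451 and Gm28857). It was in 9.69% of all 18850 promoters of this length, in 10.4% of those of other lncRNA genes and in 5.76% of those of protein-coding genes at 2 TPM in both libraries. No match means only that these letters are not in this window.

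The main transcripts of the expressed lncRNA genes had a median of 2 exons and 1112 bases, against 2 exons and 1364 bases in 1007 other lncRNA genes with any count and 8 exons and 2548 bases in the expressed protein-coding genes. A single exon was found in 16.1% of them, against 14.6% and 1.97%. The median gene span was 8849 bases, against 5556 and 24523 bases. Lengths are as counted and exons as in M21, where 96 of the 112 main transcripts had the same length. Chromosome 11 held 15 of the 112 genes, chromosome 1 held 13, and chromosomes 2 and 17 held 10 each.

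Few lncRNA genes differed 2-fold between the libraries. Of 111 genes with at least 10 counts, 2 were called higher in replicate 2, which needed a TMM ratio of 2-fold or more and a Benjamini-Hochberg adjusted p under 0.05 in a two-sided exact binomial test. Over all 11902 genes tested 5.12% were called in this direction, and 1.46% of the 7759 genes at 2 TPM in both libraries. None was called higher in replicate 1, against backgrounds of 2.20% and 0.206%. The rule asks for 2 TPM in both libraries and so removes the most extreme ratios. AI480526 had 14.25 TPM (472 counts) in replicate 2 and 12.29 TPM (225 counts) in replicate 1, a ratio of 2.36 (2.01 to 2.77, adjusted p = 3.29e-26, exact binomial test). Most of the difference was on a 1697-base transcript with 270.64 and 38.17 counts, and Setd1b, head to head with it, had a ratio of 0.928. Gm28512, a sense intronic gene, had 3.94 TPM (74 counts) and 2.69 TPM (37 counts), a ratio of 2.25 (1.49 to 3.43, adjusted p = 0.0003, exact binomial test). The exact test covers counting error only. With edgeR's negative binomial exact test, at a common coefficient of variation of 26.3%, 0 lncRNA genes had an adjusted p under 0.05 in either direction. The lowest adjusted p by this test was 0.608, and 1 gene had an unadjusted p under 0.05. The coefficient was estimated from the same 2 libraries taken as 1 group, so their difference is part of the noise it is set against. Few calls by this test therefore do not show that the libraries are alike. By that test 2.49% of all genes tested and 0.374% of those at 2 TPM in both had an adjusted p under 0.05. With totals in place of TMM, 0 were higher in replicate 2 and 3 higher in replicate 1.

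At any ratio, 20 of the 111 had a binomial adjusted p under 0.05, the 2 called genes included, against 32.3% of all genes tested and 35.5% of those at 2 TPM in both libraries. More counts let a smaller ratio pass, and the lncRNA genes had a median of 335 counts over both libraries, against 973 for the genes at 2 TPM in both. Below the 2-fold limit, those with a ratio above 1 included Malat1, Neat1, Dleu2 and Kcnq1ot1 (1.05, 1.02 to 1.09), and those below 1 Gm42743 (0.787, 0.746 to 0.829), 1110038B12Rik and 5430416N02Rik (0.772, 0.661 to 0.900). The lowest ratio was 0.593, in Gm26532 (38 counts in replicate 2 and 72 in replicate 1). Beyond 1.5-fold lay 9 of the 111 lncRNA genes (8.11%), against 465 of the 7759 genes at 2 TPM in both (5.99%). The median log2 ratio was 0.04 for the lncRNA genes and 0.01 for all genes tested. The deposited credibility intervals of TPM did not overlap between the libraries for 61 of the 112 (54.5%), against 74.6% of all genes at 2 TPM in both, where the TPM of the median gene itself had the ratio of 0.645.

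**Figure D4:**
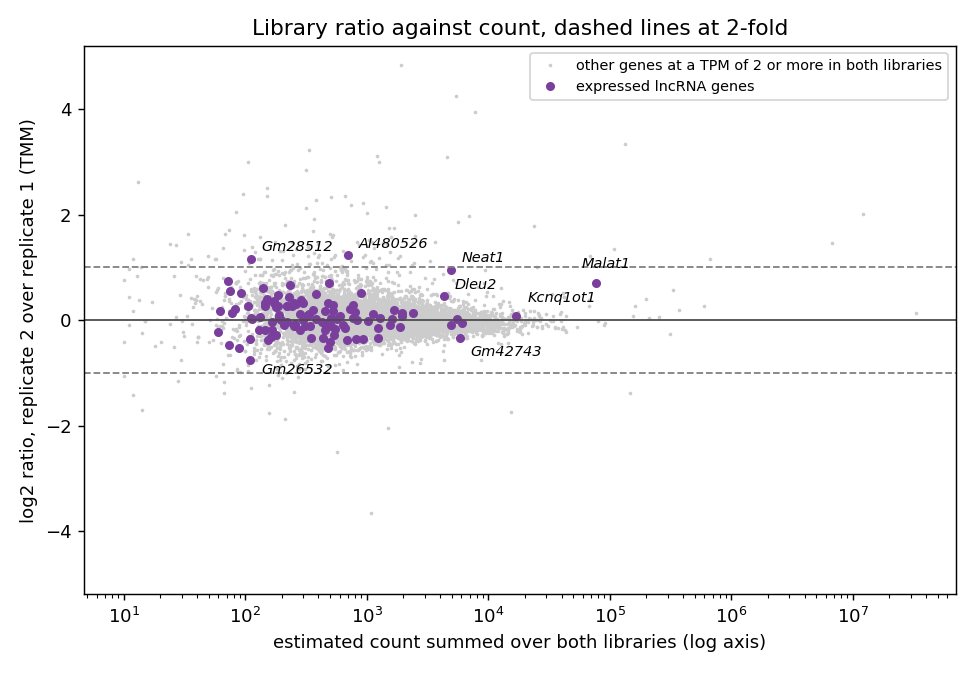
TMM log2 ratio of replicate 2 over replicate 1 against the estimated count summed over both libraries (log axis) for 111 lncRNA genes (purple) and the other genes at 2 TPM in both (grey), with dashed lines at 2-fold. AI480526 and Gm28512 lie above the upper line, Neat1 just under it at a ratio of 1.94, and no lncRNA gene lies below the lower line.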

How the data were processed

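Total RNA of 2 G1E libraries was used as a gene and a transcript table per library. Per the file headers, deposited values were expected counts without normalisation (estimated counts), TPM and FPKM scaled to length and library, the percent of a gene's TPM on each transcript, and other columns with credibility bounds of TPM and effective lengths. Per the deposited file records, the assembly was mm10 and the annotation GENCODE M4. The aligner, quantifier, versions and strand setting were not given in the sources used here.

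Types and positions came from GENCODE M21 by identifier without version. Of 43346 genes, 42462 matched, and the other 884 held 0.0572% of the counts in replicate 2 and 0.0818% in replicate 1. The 97 spike-in entries and 26248 entries named by a number stayed out of tests. Libraries were compared over all genes with at least 10 counts by an exact binomial test on rounded estimated counts against TMM effective library sizes (edgeR 4.0.16, R 4.3.3), with exact 95% intervals, since 1 group of 2 libraries allows no test of groups. On simulated counts with counting error only, over 11924 genes, it found 46.0% of 50 genes changed 2-fold and 100% of 50 at 3-fold, and called 2 of 11724 unchanged genes. DESeq2 1.42.0 gave alternative size factors, BLAST 2.17.0 shared sequence, and Python 3.11.15 with SciPy 1.17.1, pandas 2.3.3, NumPy 2.4.6 and matplotlib 3.10.9 the rest.

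The members and gene lists were chosen with earlier results of these data known. The lists overlap, so a gene can count on several of them. Named genes were the 15 with the highest mean TPM, those on a list, microRNA hosts, up to 6 called ratios per direction, and 3 on each side of the minimum. Peg13, Dancr, Ptenp1, Cytor, Nrav, Sox2ot and Rmst were not analysed here. The values of 1 further gene are not reported here. Alternatives were other minimums, units, scalings, filters and tests, and each library left out.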

Additional observations from a re-analysis of the deposited data

How the results depend on the processing

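The number of expressed lncRNA genes depended on the minimum: 112 became 209 at 1 TPM and 48 at 5 TPM. With one library left out it was 122 (replicate 2 alone) or 191 (replicate 1 alone), so replicate 2, with the lower TPM values, set it. FPKM gave 83 and posterior mean TPM 122. The summed level of 1.44 per 100 TPM of coding genes became 0.875 without Malat1 and 1.09 on estimated counts, and ranged from 1.34 to 1.55 with one library left out. In alternatives chosen after seeing the data it was 1.20 without Gm42743 and 0.634 without both Malat1 and Gm42743, and the number of genes was 97 without those RefSeq lists as protein-coding or with 30% shared sequence. The 2 genes higher in replicate 2 became 0 with total estimated counts, with spike-in totals and with the negative binomial test. The last of these took its noise from the same 2 libraries. The 0 genes higher in replicate 1 became 3 with totals and 111 with spike-in totals, which took 0.0255% of the counts in replicate 2 and 0.00162% in replicate 1. The median log2 ratio of 0.04 became -0.48 with totals and -4.46 with spike-ins, where all genes tested moved to -0.52 and -4.49. DESeq2 size factors and no filter on low counts changed no count of calls. Of the 35 named ratios, 29 left their 95% interval with totals and 0 with DESeq2 size factors. Of their mean TPM values, 3 moved by more than the SD with posterior means. Genes with few counts, such as Mir142hg with 43 and 29, have wide intervals. No paired analysis was possible because the labels give 1 group.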
